A study of Saccharomyces cerevisiae Vin13 with 18 samples.

Results

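Yeast sampled in late stationary phase from commercial tanks (day 10, 3 arrays) was compared with yeast sampled in early stationary phase from laboratory vials (day 5, 3 arrays). These 6 arrays of the series' 18 were chosen by their labels alone, and the comparison covered 5449 Saccharomyces cerevisiae genes. It asks which differences between the 2 fermentation scales persist when the stationary stages are offset, with the tanks at the later stage. The yeast was VIN13, a commercial wine strain, in Chardonnay must at 20 °C, inoculated to an OD600 of 0.1 at both scales. The vials held 80 ml under microaerobic conditions, and the tanks held 300 L. The labels give 3 biological replicates for each scale and day, and do not say whether one vessel was sampled on several days. The labels name no genetic change and no added agent in either group. Scale and stage are the named differences between the groups, and in this comparison alone they cannot be told apart. The platform was an Affymetrix yeast array, which also holds probe sets of another species, the fission yeast S. pombe.

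When yeast stops dividing in fermenting must, it lives on with scarce nitrogen, much ethanol and little oxygen. Genes of ribosome production are turned down as growth ends. Nitrogen catabolite repression, which keeps transporters and enzymes for poor nitrogen sources off while good ones last, is lifted when nitrogen runs short. Heat shock factor Hsf1 drives chaperone genes when proteins misfold, and heme-dependent regulators such as Rox1 hold hypoxic genes in check when oxygen is present.

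A gene is described as higher or lower only where limma, fitted to all 18 arrays, gave a Benjamini-Hochberg adjusted p under 0.05. All levels are log2 of the deposited intensity, and all differences are log2 differences, tanks minus vials, with the standard error of the fit. In bulk RNA, fewer expressing cells and less RNA per cell cannot be told apart in any of them. Between 5370 and 5383 genes lay above background (log2 4.40, set from the S. pombe probe sets) on the 6 arrays, and the number of arrays limits the precision of each value. The day 10 tanks were the most variable group, with a lowest correlation across genes of 0.974 between replicates against 0.990 in the day 5 vials. Their replicate 2 stood apart: its mean correlation with the other arrays of its group was 0.977, no higher than its 0.977 with the day 5 tank arrays. The 2 other day 10 tank arrays correlated at 0.984 and 0.987 within the group. For many values below that depended on this array, the value without it is given beside it, though not for every gene or list count. The 3′ minus 5′ signal of the control transcripts, a measure of RNA integrity, was 1.36 ± 0.09 (log2, SD, n = 3) in the day 10 tanks. It was 1.46 ± 0.07 in the day 5 vials, with overlapping ranges. In the groups of the second comparison below the ranges were apart, at 1.15 ± 0.09 in day 5 tanks and 1.78 ± 0.07 in day 10 vials. The part of RNA integrity in the results of either comparison was not tested.

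Of the 5449 genes, 1441 (26.4%) were higher and 1686 (30.9%) were lower in the day 10 tanks than in the day 5 vials. At least a doubling or halving was seen for 294 of the higher and 265 of the lower genes. The median difference over all genes was -0.06. Without replicate 2 of the tanks, 1358 genes were higher and 1560 lower.

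The 6 remaining stationary-phase arrays hold the same 2 scales with the stages offset the other way, day 5 tanks against day 10 vials, and share no array with the first comparison. There 2222 genes (40.8%) were higher and 1626 (29.8%) lower in the tanks, with a median of 0.10. A gene that followed scale alone would differ alike in both offset comparisons, and a gene that followed fermentation day alone would differ with opposite signs. In both offset comparisons 980 genes (18% of all) were higher in the tanks and 882 (16.2%) were lower. Those 980 genes were 68.0% of the genes higher in the first comparison and 44.1% of the genes higher in the second. The 882 were 52.3% and 54.2% of the respective lower genes. In opposite directions, 182 genes (3.34%) were higher in the first and lower in the second, and 281 (5.16%) were lower in the first and higher in the second. A further 279 higher and 523 lower genes of the first comparison were not called in the second. Tested directly, the first difference exceeded the second for 1035 genes (19.0%) and fell short of it for 1638 (30.1%).

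**Figure D1:**
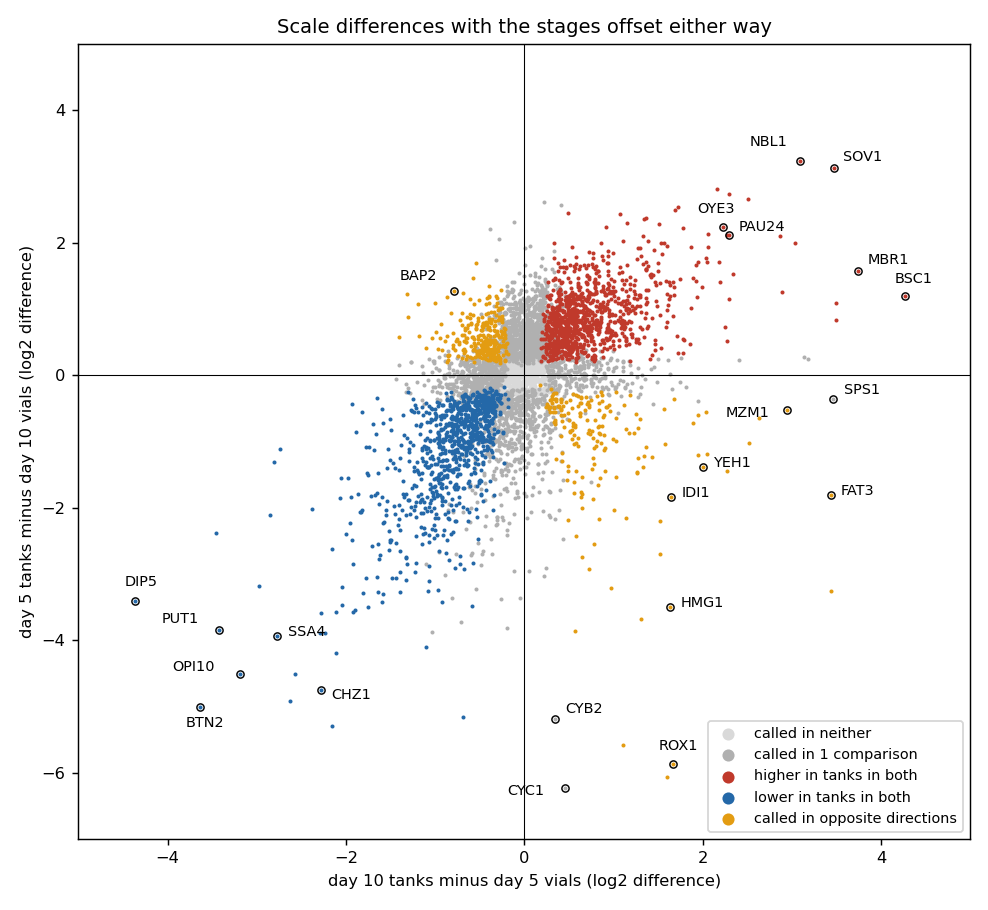
Each of the 5449 genes is a point at its log2 difference in day 10 tanks against day 5 vials (horizontal axis) and in day 5 tanks against day 10 vials (vertical axis), coloured by the calls in both and with genes described in the text ringed and named. SOV1 and NBL1 lie high in both, DIP5 and BTN2 low in both, and FAT3 and ROX1 right of zero but below it.

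Transport and use of nitrogen gave the largest difference of the comparison. DIP5, the permease for glutamate and aspartate, read 12.91, 12.35 and 12.58 in the 3 day 5 vials and 8.47, 8.25 and 8.04 in the 3 day 10 tanks. Its difference was -4.36 (SE 0.42, adjusted p = 3.1e-07), and every tank array lay far below every vial array. With the stages offset the other way it was again lower in the tanks, by a difference of -3.41 (adjusted p = 2.1e-06).

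PUT1, the proline oxidase that starts the use of proline, read 13.70, 13.54 and 13.61 in the vials and 10.40, 10.41 and 9.77 in the tanks. The groups did not overlap, and the difference was -3.42 (SE 0.29, adjusted p = 7.6e-08) against -3.85 in the other offset comparison. DAL80, a repressor within the nitrogen catabolite system, stood at 12.24, 11.93 and 12.40 in the vials and 9.65, 8.71 and 9.28 in the tanks, a difference of -2.97 (SE 0.27) against -3.19. GAP1, the general amino acid permease, gave 13.14, 12.93 and 13.22 in the vials and 10.20, 10.35 and 10.19 in the tanks, a difference of -2.85 (SE 0.30) against -2.11. For OPT2, of the oligopeptide transporter family, the vials read 13.22, 13.14 and 13.14 and the tanks 9.52, 10.14 and 9.45, a difference of -3.46 (SE 0.22) against -2.38. These 5 genes were therefore lower in the tanks whichever scale was at the later stage, and in the first comparison none of their tank arrays reached a vial array.

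The nitrogen catabolite list is given by role, and differences between its roles were not tested. Of its 11 permeases 8 were lower and 1 higher, with a median of -1.13, and 6 were lower in both offset comparisons. Its 14 enzymes had 4 lower and 2 higher, where 30.9% of all genes were lower and 26.4% higher. GDH2, the glutamate dehydrogenase that releases ammonium, was higher, at 1.00 (adjusted p = 4.3e-08) against 1.33 in the other offset comparison. CAR1, the arginase, was also higher in both, at 0.92 and 0.71. Of its 9 regulators 3 were higher and 2 lower, and GAT1, an activator of the system, read 11.35, 11.47 and 11.80 in the vials and 13.00, 12.67 and 12.73 in the tanks. Its difference of 1.26 (adjusted p = 4.3e-05) had the opposite sign to that of the repressor DAL80.

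Permeases of the amino acid list, which also holds DIP5, mostly depended on the offset. DIP5 was its 1 gene lower under both. In day 10 tanks against day 5 vials, 3 of 14 were higher and 5 lower (median -0.10), not far from the 26.4% and 30.9% of all genes. In day 5 tanks against day 10 vials 8 were higher and 1 lower (median 1.03), beside 40.8% and 29.8% of all genes. All 11 that differed between the 2 comparisons did so in the same direction, with the smaller value in the first, as did 30.1% of all genes. MUP3, a methionine permease, was higher in both, at 1.36 and 2.38, and so was BAP3, a permease for branched-chain and other amino acids, at 1.07 and 2.44. BAP2, its relative, was called in opposite directions: -0.79 (SE 0.18) in the first and 1.27 (SE 0.18) in the second. MMP1, for S-methylmethionine, was lower only by the first test (-1.32 against -0.26), as was the peptide transporter PTR2 (-1.13 against -0.15). The difference between these paired values was called for BAP2 (adjusted p = 9.4e-06), MMP1 (adjusted p = 0.017) and PTR2 (adjusted p = 0.0022).

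Chaperone genes were lower in the tanks. The list of 41 heat shock and chaperone genes held 29 that were lower and 2 that were higher, beside 30.9% and 26.4% of all genes, with a median of -0.71. In the other offset comparison 33 were lower and 2 higher (median -1.01), and 27 were lower in both. Without replicate 2 of the day 10 tanks 28 were lower, and the list's median was -0.48.

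BTN2, which gathers misfolded proteins into deposits for refolding, read 13.18, 13.36 and 13.16 in the vials and 9.96, 9.01 and 9.81 in the tanks. Its difference was -3.64 (SE 0.19, adjusted p = 2.9e-10), and -5.01 in the other offset comparison. SSA4, the stress-induced HSP70, gave 12.55, 12.53 and 12.84 in the vials and 9.83, 9.81 and 9.96 in the tanks, a difference of -2.77 (SE 0.11, adjusted p = 2.1e-11) against -3.94. HSP82, the inducible HSP90, stood at 13.84, 13.88 and 13.89 in the vials and 11.90, 11.63 and 11.95 in the tanks, which is -2.04 (SE 0.10) against -3.20. The groups were well apart in all 3 genes, and for BTN2 replicate 2 of the tanks lay below the 2 other tank arrays.

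CPR6, a cyclophilin that works with HSP90, was lower by a difference of -1.81 (adjusted p = 5.5e-09) against -3.29, and HSP78, the mitochondrial disaggregase, by -2.16 (adjusted p = 6.6e-11) against -2.63. By role, 13 of 20 HSP70 and partner genes, 10 of 13 HSP90 and cochaperone genes and 6 of 7 small heat shock and sorting genes were lower. The exceptions were PIH1, a cochaperone of HSP90, at 0.48 and 0.69, and the regulator HSF1. HSF1 itself read 10.41, 10.54 and 10.66 in the vials and 11.51, 10.85 and 11.17 in the tanks, a difference of 0.64 (SE 0.14, adjusted p = 0.0011). In the other offset comparison HSF1 was not called, at 0.10 (adjusted p = 0.52).

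OPI10, whose human counterpart Hikeshi carries HSP70 into the nucleus, was among the most sharply separated genes. It read 12.25, 12.04 and 12.06 in the vials and 8.96, 8.94 and 8.90 in the tanks, a difference of -3.18 (SE 0.09, adjusted p = 1.6e-13) against -4.52. On day 2, in exponential growth, its scale difference was -0.17 (adjusted p = 0.086).

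Prefoldin, which hands unfolded actin and tubulin to the folding chamber CCT, includes genes that were lower in the tanks, with a size that rested on 1 array. YKE2, a prefoldin subunit, read 9.10, 8.65 and 8.14 in the vials and 7.18, 4.43 and 7.39 in the tanks, where replicate 2 lay almost at background. Its difference of -2.29 (adjusted p = 0.0015) was -1.34 (adjusted p = 4.7e-04) without that array. GIM4, another subunit, moved likewise from -1.33 to -0.82, and PFD1 from -1.14 to -0.74, or to -0.49 when arrays were weighted by their quality. All 3 were lower in the other offset comparison too, at -3.90, -3.09 and -1.87. Of the 16 genes in the prefoldin and tubulin folding list 7 were lower and 2 higher, beside 30.9% and 26.4% of all genes. The CCT subunit gene CCT6 was one of those higher, at 0.67 and 0.81.

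Genes of the ribosome were lower as well. Of 128 genes in the list of cytosolic ribosomal proteins 109 were lower in the day 10 tanks (list median -0.57), beside 30.9% of all genes. The other 19 were not called, and they include RPP1, of the enzyme RNase P, which matched the list by its name only. Without replicate 2 of the tanks 105 of the list were lower. In the other offset comparison 58 were lower and 8 higher (median -0.30), and 57 were lower in both. Of these genes 25 were read by probe sets that can also match related sequences. RPL35A, of the large subunit, gave 13.66, 13.47 and 13.27 in the vials and 12.31, 11.50 and 12.54 in the tanks, a difference of -1.36 (adjusted p = 2.8e-04) against -1.80. RPS10A, of the small subunit, differed by -1.24 against -1.66. RPL39, at -1.59, depended on replicate 2 of the tanks, without which it was -1.04. Ribosomal protein genes have short coding sequences. The 832 other genes with a coding length under 600 nt also had a negative median of -0.18, against 0.00 for 3541 genes of at least 900 nt. In the other offset comparison these medians were further apart, at -0.32 and 0.22. The part of length in the ribosomal difference was not tested.

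Of 116 ribosome biogenesis genes 49 were lower and 14 higher (median -0.39), beside 30.9% and 26.4% of all genes. This list was sensitive to replicate 2 of the day 10 tanks, without which 38 were lower and the median was -0.18. In the other offset comparison 73 were lower and 13 higher, beside 29.8% and 40.8% of all genes. MRT4, which prepares the stalk of the large subunit, read 12.95, 12.77 and 13.26 in the vials and 10.32, 10.20 and 10.57 in the tanks, and differed by -2.63 (SE 0.15, adjusted p = 7.9e-10) against -4.91. YAR1, the chaperone that escorts ribosomal protein Rps3, gave 12.20, 12.21 and 12.31 in the vials and 9.82, 9.34 and 9.83 in the tanks, a difference of -2.57 (SE 0.11) against -4.51. In both, all 3 tank arrays lay more than 2 log2 units under the lowest vial array. UTP30, which takes part in making the small subunit, was lower in both offset comparisons (-2.38 and -2.01), and so was SSF1, of large-subunit assembly (-2.0 and -2.40). RCL1, needed for cleavage of the pre-ribosomal RNA, went the other way and was higher in both (0.92 and 0.66). SOF1, of the small-subunit processome, was higher in the first (1.02) and lower in the second (-0.65).

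CHZ1, a histone chaperone for the variant H2A.Z, read 10.31, 10.18 and 10.27 in the vials and 8.90, 6.02 and 8.98 in the tanks. Replicate 2 of the tanks lay nearly 3 log2 units below the other two. The difference was -2.28 (SE 0.59, adjusted p = 0.0037) with that array and -1.31 (adjusted p = 0.0092) without it, and -4.76 in the other offset comparison. PRP46, a splicing factor, differed by -1.64 (adjusted p = 1.8e-07) against -3.28.

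Among genes higher in the tanks under both offsets, SOV1 came first by the smaller of its differences. SOV1, a mitochondrial protein needed to make the mitochondrial ribosomal protein Var1, read 7.15, 7.30 and 6.95 in the vials and 10.93, 10.07 and 10.82 in the tanks. Its difference was 3.47 (SE 0.18, adjusted p = 3.1e-10) against 3.12 (adjusted p = 5.2e-10). NBL1, a subunit of the chromosomal passenger complex, gave 6.85, 6.40 and 6.94 in the vials and 9.90, 10.07 and 9.49 in the tanks, a difference of 3.09 (SE 0.22, adjusted p = 1.1e-08) against 3.24. For both genes the 2 offset comparisons gave close values, and the difference between them was not called (adjusted p = 0.26 for SOV1 and 0.73 for NBL1). On day 2 SOV1 was slightly lower in the tanks (-0.45, adjusted p = 0.031) and NBL1 was higher (0.70, adjusted p = 0.0085).

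OYE3, an NADPH-dependent old yellow enzyme, read 9.69, 9.69 and 9.70 in the vials and 11.86, 12.02 and 11.87 in the tanks. The difference was 2.22 (SE 0.13, adjusted p = 7.9e-10) against 2.23, nearly equal under both offsets. SMK1, the MAP kinase of spore wall formation, stood at 5.63, 6.11 and 5.56 in the vials and 8.31, 8.89 and 7.63 in the tanks, a difference of 2.51 (SE 0.23) against 2.66. RTT10, a protein of tRNA modification and endosomal recycling, differed by 2.29 (adjusted p = 8.9e-11) against 2.73. PRM2, a pheromone-regulated protein of nuclear fusion, differed by 2.05 (adjusted p = 2.1e-08) against 2.14. For none of these 4 genes did any tank array overlap a vial array.

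DDI3, which detoxifies cyanamide (2.16 against 2.81), and AAD4, a putative aryl-alcohol dehydrogenase (1.86 against 1.93), belong to families of near-identical genes, so their probe sets cannot be assigned to one copy. PHO92, an RNA-binding protein of the YTH family that reads methylated adenosine, gave 7.64, 8.06 and 7.83 in the vials and 10.63, 10.91 and 11.11 in the tanks. It was higher in both, at 3.04 (SE 0.21) and 1.99, but lower in the tanks on day 2 (-1.05, adjusted p = 1.9e-04).

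**Figure D2:**
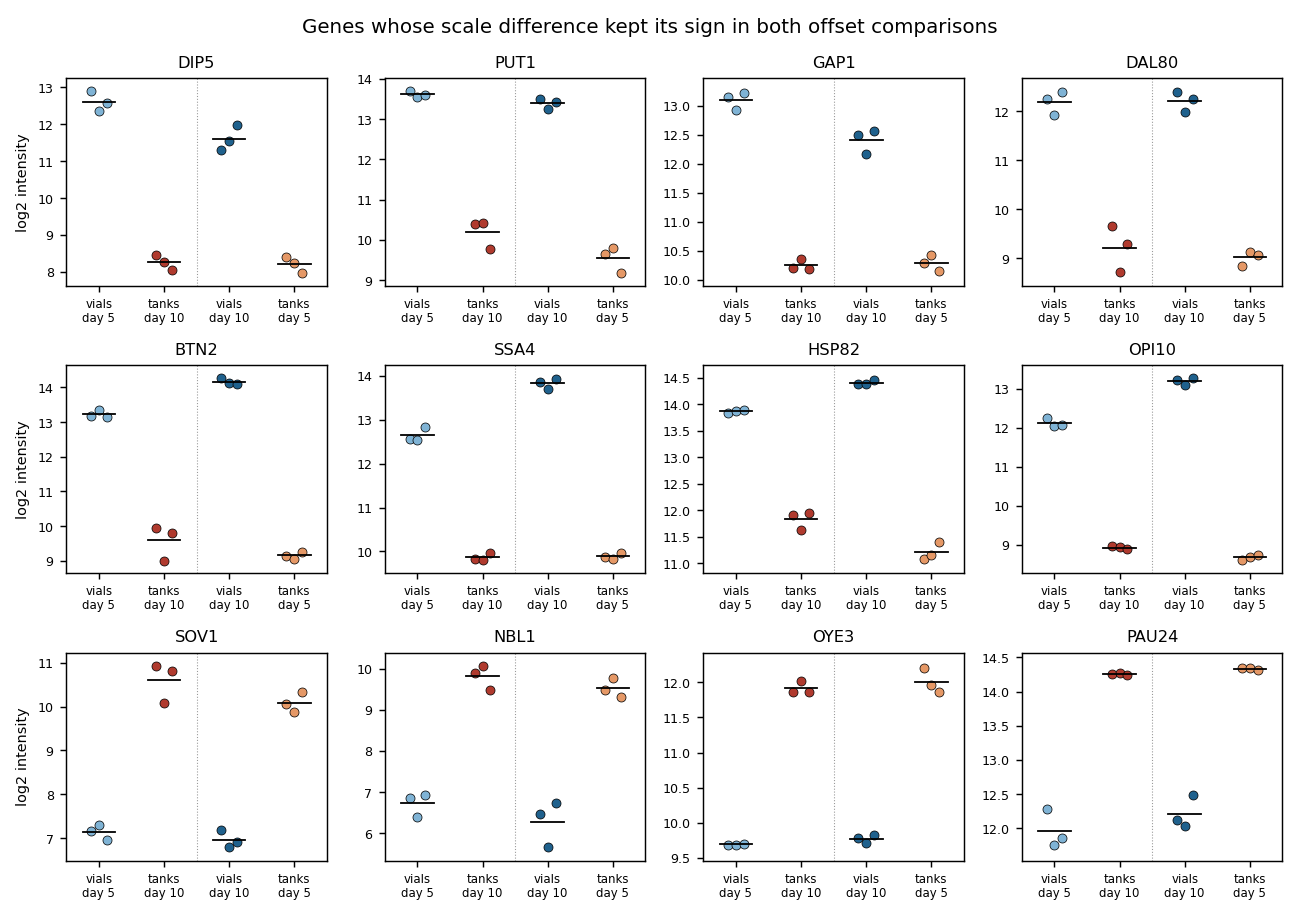
Log2 intensity of 12 genes on each of 12 stationary-phase arrays, with points for arrays and bars for group means of 3. Left of each dotted line are day 5 vials and day 10 tanks, and right of it are day 10 vials and day 5 tanks. The first 8 genes were lower in the tanks on both sides of the line, and SOV1, NBL1, OYE3 and PAU24 were higher on both.

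Seripauperins, small cell wall proteins that yeast makes when oxygen is scarce, were higher in the tanks without exception among those measured: 13 of 13, with a median of 1.62 and a range from 0.93 to 2.30. In the other offset comparison 12 of 13 were higher (median 1.20). Of the 13 genes, 12 were read by probe sets shared with other members of the family, so they are not 13 separate measurements. PAU24 read 12.28, 11.76 and 11.85 in the vials and 14.26, 14.27 and 14.25 in the tanks, a difference of 2.30 (SE 0.13, adjusted p = 6.8e-10) against 2.12. PAU3 differed by 2.18 (adjusted p = 5.8e-09) against 1.71. The 3 tank values of PAU24 were nearly equal, and its vial values were well below them.

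Of 20 targets in the anaerobic and hypoxic list 15 were higher in the day 10 tanks and 5 were not called (median 0.64), and 14 were higher and 3 lower in the other offset comparison. Of these 20, PAU23 and PAU24 also stand among the seripauperins. Of the list's 10 repressors and activators 6 were higher and 1 lower in the first comparison, whereas 2 were higher and 5 lower in the second. Over all genes 26.4% were higher and 30.9% lower in the first comparison, and 40.8% and 29.8% in the second. ROX1, the repressor of hypoxic genes, had the largest gap between the offsets in this list and is described with the genes that turned.

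Several lists of metabolism held a larger share of higher genes than the 26.4% of all genes. Of 20 TCA and glyoxylate cycle genes 12 were higher and 2 lower (median 0.38, and 0.24 when arrays were weighted by their quality), and all 12 were also higher in the other offset comparison, where 18 were higher and 2 not called. PCK1, the first committed enzyme of gluconeogenesis, read 9.04, 9.42 and 9.31 in the vials and 10.53, 10.60 and 10.44 in the tanks, a difference of 1.26 (SE 0.10, adjusted p = 6.0e-08) against 1.05. CIT3, a mitochondrial citrate synthase, differed by 1.05 against 1.16, and IDH1, a subunit of isocitrate dehydrogenase, by 0.81 against 0.76. IDH2, the partner subunit of IDH1, was lower instead (-0.28, adjusted p = 0.0075) and not called in the other comparison (-0.07). Its call was lost when limma was fitted to the day 10 tanks and day 5 vials alone (adjusted p = 0.074).

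Vitamin genes gave a similar count. Of 25 genes for biotin, riboflavin and NAD 12 were higher and 13 not called (median 0.32), and 11 of the 12 were also higher in the other offset comparison, where 22 were. BNA2, which opens the route from tryptophan to NAD, differed by 1.36 (adjusted p = 3.0e-07) against 1.07. RIB7, of riboflavin synthesis, differed by 1.30 against 0.73, and BIO3, of biotin synthesis, by 1.11 against 0.70. Of 20 thiamine and pyridoxine genes 11 were higher and 3 lower (median 0.45), 10 of them higher in both. With array weights the median fell to 0.14, with 9 higher and 6 lower. THI20, of thiamine synthesis, read 11.16, 11.21 and 11.01 in the vials and 12.89, 12.81 and 12.73 in the tanks, a difference of 1.68 (SE 0.09, adjusted p = 5.7e-10) against 1.33. SNZ1 and SNO1, the partners of a pyridoxine synthase, differed by 1.60 and 1.34 in the first comparison and by 1.95 and 2.36 in the second.

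Aroma genes of wine yeast are given by role, and the difference between roles was not tested. Of 10 ester and aryl-alcohol dehydrogenase genes 7 were higher, all 7 under both offsets, and 3 were not called. Of 11 Ehrlich pathway genes, which turn amino acids into fusel alcohols, 3 were higher and 3 lower, shares close to those of all genes. ARO9, the aromatic aminotransferase that starts the pathway, read 8.25, 8.47 and 8.44 in the vials and 10.05, 10.65 and 10.31 in the tanks, a difference of 1.95 (SE 0.14, adjusted p = 1.1e-08) against 1.71. ARO10, the decarboxylase of its next step, gave 10.71, 10.63 and 10.88 in the vials and 12.37, 12.43 and 12.48 in the tanks, a difference of 1.69 (SE 0.10) against 2.5. Their activator ARO80 had the opposite sign (-0.36, adjusted p = 0.02), a call that was lost without replicate 2 of the tanks (-0.24, adjusted p = 0.11) and without replicate 3 of the vials (-0.34, adjusted p = 0.053). The median of the whole list of 21 genes was 0.21, and 0.03 without replicate 2 of the tanks.

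Of 36 oxidative stress genes 16 were higher and 6 lower (median 0.22), 14 of them higher under both offsets. With array weights the median was 0.12, with 17 higher and 11 lower. ZWF1, which makes NADPH at the head of the pentose phosphate pathway, read 11.83, 11.92 and 12.16 in the vials and 13.62, 13.79 and 13.50 in the tanks, a difference of 1.66 (SE 0.12, adjusted p = 1.9e-08) against 0.90. Peroxisomal fatty acid oxidation had 11 of 28 genes higher and 2 lower, 10 of them higher under both. POT1, the thiolase of that pathway, differed by 1.18 against 1.30, and SPS19, a reductase for unsaturated fatty acids, by 1.45 against 1.89. FAA4, a fatty acyl-CoA synthetase for imported fatty acids, was higher in both (1.18 and 1.38), as was YSR3, a sphingoid base phosphate phosphatase (1.72 and 2.54).

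Of 48 cell wall genes 25 were higher and 4 lower (median 0.27), beside 26.4% and 30.9% of all genes. Higher under both offsets were 22, beside 18% of all genes. The list joins glucan and chitin enzymes with mannoproteins, and the difference between these roles was not tested. GAS2, a glucan-remodelling enzyme made during spore wall formation, read 9.21, 9.33 and 9.34 in the vials and 11.78, 11.44 and 11.53 in the tanks, a difference of 2.29 (SE 0.09, adjusted p = 2.1e-11) against 1.14. Its relatives differed in direction: GAS4, also of the spore wall, was higher (1.52 against 0.90), whereas GAS1, the enzyme of growing cells, was lower (-0.51, adjusted p = 0.0028) and not called in the other comparison (0.22). TOS6, a wall protein, was lower in both (-1.50 and -1.28).

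Flocculins, which make cells stick together, did not share a direction. FLO11 read 11.10, 11.61 and 11.84 in the vials and 9.88, 10.42 and 9.78 in the tanks, a difference of -1.49 (SE 0.21, adjusted p = 1.8e-05) against -2.48. FLO9 was also lower in both (-0.95 and -1.81), but its probe set can also match related sequences. FLO10 was higher, at 1.5 (adjusted p = 1.3e-08), and not called in the other comparison at 0.24 (adjusted p = 0.059). AGA1, the anchor of the a-agglutinin used in mating, was higher in the first (1.67) and lower in the second (-0.36), like TEC1, an activator of filamentous growth genes (1.57 and -0.50).

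**Figure D3:**
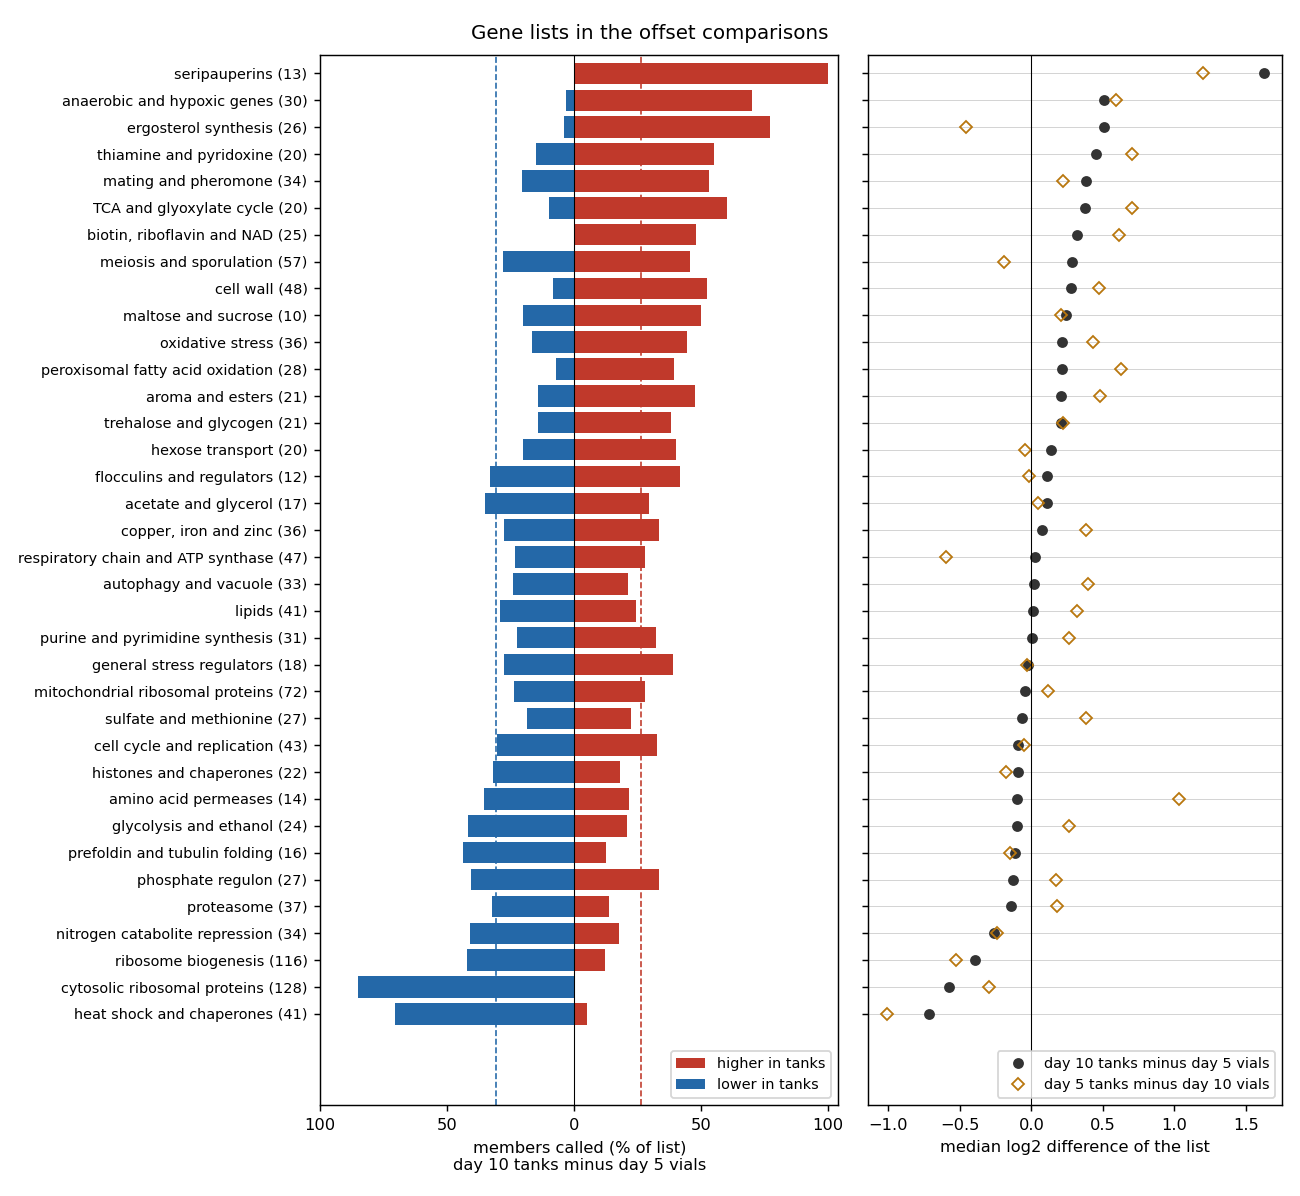
Left, share of each gene list called higher (red) or lower (blue) in day 10 tanks against day 5 vials, with the list's size in brackets and dashed lines at the shares over all 5449 genes, 26.4% and 30.9%. Right, the list's median log2 difference in that comparison (circles) and in day 5 tanks against day 10 vials (diamonds). Seripauperins lie highest and heat shock genes lowest in the first comparison, and the ergosterol medians lie on opposite sides of zero.

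Of the 12 largest rises among genes with a standard name and groups that did not overlap, 7 were also higher in the tanks under the other offset, 3 were not called there and 2 were lower. BSC1, a gene of unknown function found by bypass of its stop codon, read 4.72, 4.36 and 4.54 in the vials, at or just above background, and 8.61, 9.10 and 8.71 in the tanks. Its difference was 4.27 (SE 0.22, adjusted p = 2.9e-10), the highest of all genes, against 1.20 (adjusted p = 1.2e-04). RGI2, a protein induced in respiratory growth, was likewise dim in the vials, at 4.71, 4.92 and 4.61, and read 8.0, 8.41 and 8.29 in the tanks. RGI2 differed by 3.49 (SE 0.16, adjusted p = 8.9e-11) against 0.83. For both genes the group means of all 4 stationary groups tell the order: BSC1 averaged 4.54 in day 5 vials, 6.55 in day 5 tanks, 5.35 in day 10 vials and 8.81 in day 10 tanks. RGI2 averaged 4.74, 6.68, 5.85 and 8.23 in the same order.

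MBR1, a protein of mitochondrial function and stress resistance, read 8.12, 8.68 and 8.76 in the vials and 12.42, 12.25 and 12.11 in the tanks, a difference of 3.74 (SE 0.15, adjusted p = 2.8e-11) against 1.57. The excess of the first difference over the second was 2.18 for MBR1 (adjusted p = 9.2e-07), 3.07 for BSC1 (adjusted p = 1.1e-06) and 2.66 for RGI2 (adjusted p = 1.9e-07). XBP1, a repressor of growth genes in starved cells, also showed the larger value in the first comparison (1.79 against 0.53).

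SRX1, the sulfiredoxin that repairs overoxidised peroxiredoxins, read 7.30, 7.10 and 6.90 in the vials and 10.70, 10.04 and 10.08 in the tanks. The first difference was 3.18 (SE 0.18, adjusted p = 6.8e-10), and the second was 0.24 and not called (adjusted p = 0.23). UBA3, a subunit of the enzyme that activates the ubiquitin-like protein Rub1, gave 6.88, 7.27 and 7.03 in the vials and 10.57, 10.28 and 9.73 in the tanks, which is 3.13 (SE 0.18, adjusted p = 7.3e-10) against 0.27 (adjusted p = 0.17). Group means of SRX1 were 7.10 in day 5 vials, 8.33 in day 5 tanks, 8.09 in day 10 vials and 10.27 in day 10 tanks, so the day 10 tanks stood above all other stationary groups. Those of UBA3 were 7.06, 8.47, 8.19 and 10.19 in the same order. The difference between the offsets was called for both, at 2.93 (adjusted p = 2.0e-07) and 2.86 (adjusted p = 2.4e-07).

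Meiosis and sporulation genes were among these. Of 57 genes 26 were higher and 16 lower (median 0.29) in the day 10 tanks, beside 26.4% and 30.9% of all genes. In the other offset comparison 15 were higher and 25 lower (median -0.19), beside 40.8% and 29.8% of all genes. In 8 of the 57 the call went from higher in the first to lower in the second, beside 3.34% of all genes. SPS1, a kinase of spore wall formation, read 8.23, 8.55 and 8.72 in the vials and 12.29, 11.78 and 11.82 in the tanks, a difference of 3.46 (SE 0.17, adjusted p = 1.8e-10) against -0.36 (adjusted p = 0.064). MEI4, needed for meiotic recombination, stood at 6.86, 6.90 and 6.63 in the vials and 9.57, 9.45 and 9.25 in the tanks, a difference of 2.63 (SE 0.11, adjusted p = 2.8e-11) against -0.64. RRT5, expressed in sporulating cells, was higher in both (3.49 and 1.08). OSW2, of the outer spore wall, and MND1, of meiotic recombination, were lower in both, at -1.82 and -2.03 for OSW2 and -1.33 and -2.76 for MND1. Mating genes had 18 of 34 higher and 7 lower in the first comparison, beside 26.4% and 30.9% of all genes. In the second 14 were higher, near the 40.8% of all genes, and 12 lower, beside 29.8%. Higher in both were 11 of the 34. Among the mating genes FIG1, a membrane protein of mating cells, differed by 1.92 against 1.42, and PRM1, of cell fusion, by -1.40 against -2.33.

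Other genes lower in the day 10 tanks showed a smaller difference under the other offset. SET6, a protein with a SET domain, read 9.38, 9.79 and 9.69 in the vials and 6.42, 6.85 and 7.18 in the tanks, a difference of -2.80 (SE 0.18, adjusted p = 2.5e-09) against -1.30. GIT1, the transporter of glycerophosphoinositol, gave 13.13, 12.77 and 13.06 in the vials and 10.11, 10.55 and 10.09 in the tanks, a difference of -2.74 (SE 0.14, adjusted p = 3.1e-10) against -1.12. PHO84, the high-affinity phosphate transporter, was lower in both as well (-1.69 and -1.12), while PHO80, a cyclin that restrains the phosphate response, was higher in both (1.30 and 1.04). Over the 27 genes of the phosphate list 11 were lower and 9 higher in the first comparison, beside 30.9% and 26.4% of all genes. Without replicate 2 of the day 10 tanks 12 were lower and 6 higher. Among the metals, FRE3, a siderophore reductase, was lower (-1.98 and -1.56), as was the copper-binding metallothionein CUP1-1 (-1.44 and -2.54). CTR3, a copper transporter, was higher (2.00 and 1.33), as was ZAP1, the zinc-responsive activator (1.36 and 1.60).

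Sterol synthesis turned with the offset. Of 26 ergosterol genes 20 were higher and 1 lower in the day 10 tanks (median 0.51), whereas 6 were higher and 17 lower in the day 5 tanks against day 10 vials (median -0.46). For 14 of the 26 genes the 2 calls were opposed, all from higher to lower, beside 3.34% of all genes. Without replicate 2 of the day 10 tanks 18 were higher and 1 lower in the first comparison.

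HMG1, the main HMG-CoA reductase and a controlling step of the mevalonate route, read 11.79, 11.19 and 11.33 in day 5 vials and 13.55, 13.09 and 12.56 in day 10 tanks. Its values were 13.01, 13.15 and 13.08 in day 10 vials and 9.73, 9.79 and 9.23 in day 5 tanks. The differences were therefore 1.63 (SE 0.20, adjusted p = 5.9e-06) and -3.50 (SE 0.20, adjusted p = 5.3e-10), with both day 10 groups level and the day 5 tanks lowest. IDI1, the isomerase that makes dimethylallyl diphosphate, gave 11.63, 11.60 and 11.40 in day 5 vials and 13.62, 12.97 and 12.96 in day 10 tanks, against 13.19, 13.25 and 13.02 in day 10 vials and 11.12, 11.39 and 11.41 in day 5 tanks. Here both day 5 groups were alike and both day 10 groups higher, with differences of 1.64 (SE 0.15) and -1.85 (SE 0.15). ERG26, a dehydrogenase of the later steps, differed by 1.02 (adjusted p = 1.6e-07) against -0.25. ERG20, farnesyl diphosphate synthase, was the 1 gene lower in both (-0.61 and -0.34). YEH1, a steryl ester hydrolase counted among the hypoxic targets, differed by 2.00 (SE 0.11, adjusted p = 7.3e-10) against -1.38.

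ROX1 read 10.51, 10.09 and 10.60 in day 5 vials and 12.98, 11.66 and 11.57 in day 10 tanks, where replicate 1 was the highest. It stood at 13.37, 13.59 and 13.66 in day 10 vials and 7.45, 8.05 and 7.50 in day 5 tanks. The difference was 1.67 (SE 0.34, adjusted p = 6.3e-04) under the first offset and -5.87 (SE 0.34, adjusted p = 5.3e-10) under the second. Day 5 tanks were lowest, followed by day 5 vials, day 10 tanks and day 10 vials, with no overlap between neighbours. HMX1, the heme oxygenase, followed the same signs (1.51 and -2.20). FAT3, a protein of fatty acid uptake, gave 6.87, 7.15 and 6.94 in day 5 vials and 10.74, 10.61 and 9.94 in day 10 tanks. Its differences were 3.44 (SE 0.23, adjusted p = 5.5e-09) and -1.81 (adjusted p = 3.2e-06). UTR5, of unknown function, had the same signs (1.52, or 0.91 with array weights, and -2.69), as did MZM1, which protects an assembly intermediate of respiratory complex III (2.94 and -0.53). Singled out after their values were seen, the mitochondrial J-protein gene JID1 (1.10 and -5.59), the phosphatidylinositol transfer protein gene PDR16 (1.31 and -3.69) and the unnamed reading frames YMR244W (3.44 and -3.25) and YBR182C-A (1.60 and -6.07) turned as well.

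Genes of respiration were called in both directions in the first comparison, and those of complexes III and IV and cytochrome c mostly lower in the second. Of 21 such genes 6 were higher and 3 lower in the day 10 tanks (median 0.08), beside 26.4% and 30.9% of all genes. In day 5 tanks against day 10 vials 19 were lower, beside 29.8% of all genes, and 2 not called (median -1.05). QCR2, a core subunit of complex III, read 10.72, 10.68 and 10.56 in day 5 vials and 12.71, 12.30 and 11.68 in day 10 tanks, a difference of 1.58 (SE 0.17, adjusted p = 1.2e-06) against -1.04. CYC1, the main cytochrome c, gave 10.64, 10.37 and 10.22 in day 5 vials and 11.52, 10.84 and 10.24 in day 10 tanks, with overlap. Its difference was 0.46 and not called (SE 0.28, adjusted p = 0.18), and the other offset gave -6.23 (adjusted p = 3.2e-11). The lactate dehydrogenase gene CYB2 read 10.33, 10.18 and 10.14 in day 5 vials and 11.47, 10.50 and 9.69 in day 10 tanks. It was not called either, at 0.34 (SE 0.31, adjusted p = 0.36), against -5.19 under the other offset. The 3 tank arrays decided these values: without replicate 3 both genes were called higher, each at 0.77, and without replicate 1 CYB2 was at -0.12 and CYC1 at 0.13. With array weights they were at -0.29 and 0.01. SUE1, which speeds the breakdown of unstable cytochrome c, was lower at -0.69, a call lost without replicate 2 (-0.35, adjusted p = 0.068), against -5.17 under the other offset. Of the list's 10 dehydrogenase genes 6 were higher and 4 not called in the first comparison, and 6 were higher and 4 lower in the second. Higher in both were 4, and 2 turned. These 2 were the NADH dehydrogenases NDI1, from 1.23 to -0.87, and NDE1, from 1.02 (0.67 with array weights) to -1.53. Of 16 ATP synthase genes 8 were lower and 1 higher in the first comparison, beside 30.9% and 26.4% of all genes. Without replicate 2 of the tanks 5 were lower, near the share of all genes. In the second comparison 6 were higher and 6 lower, beside 40.8% and 29.8% of all genes.

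**Figure D4:**
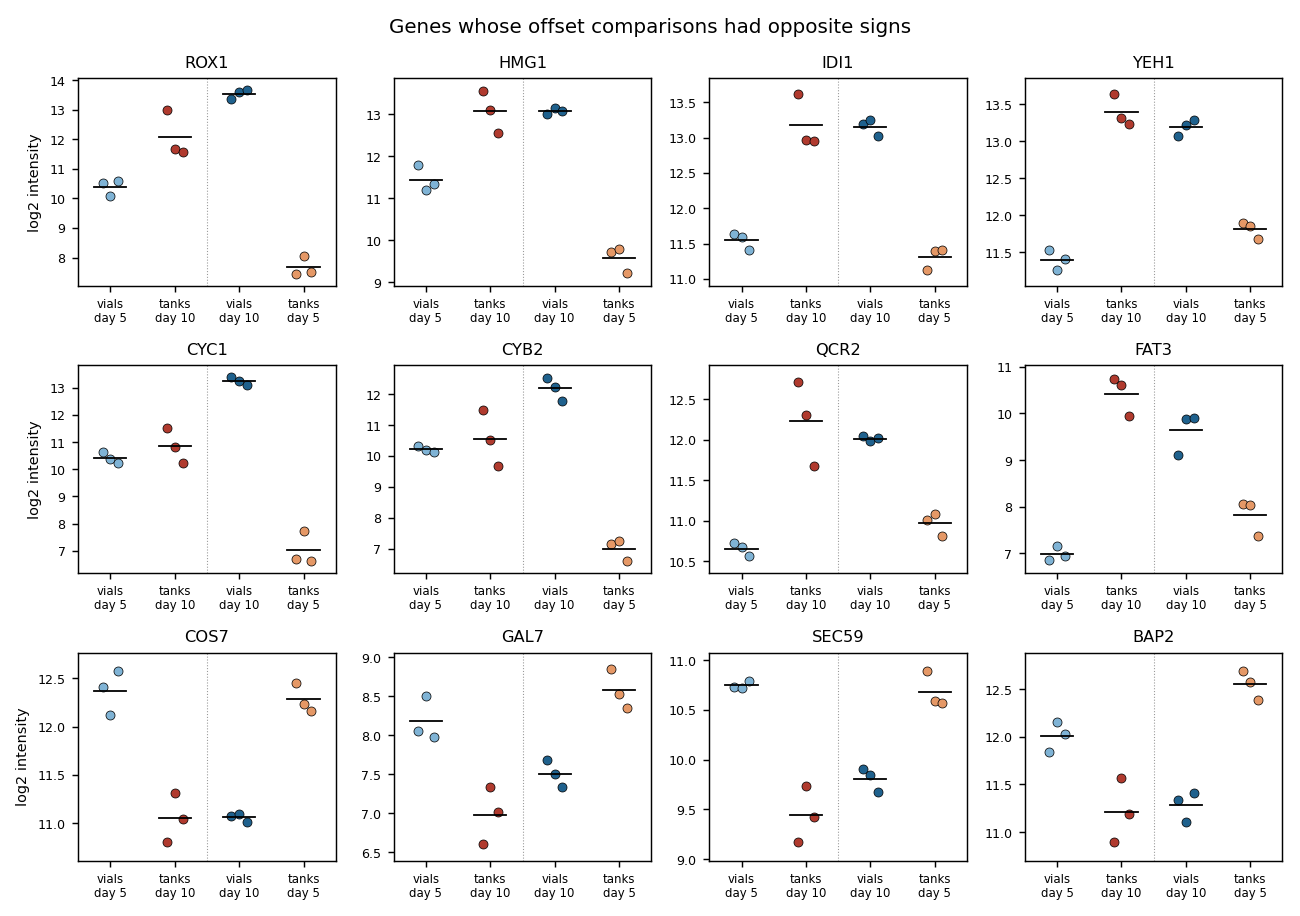
Log2 intensity of 12 genes on each of 12 stationary-phase arrays, with points for arrays and bars for group means of 3, and the 2 offset comparisons on either side of each dotted line. From ROX1 to FAT3 the day 10 tanks lie at or above the day 5 vials while the day 5 tanks lie below the day 10 vials. COS7, GAL7, SEC59 and BAP2 show the reverse, and CYC1 and CYB2 overlap left of the line.

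Genes lower in the day 10 tanks and higher in the day 5 tanks had smaller differences. Of the 281, 2 reached a doubling or halving in both comparisons, against 26 of the 182 that turned the other way. COS7, of a family of membrane proteins near chromosome ends, read 12.41, 12.12 and 12.58 in day 5 vials and 10.80, 11.32 and 11.04 in day 10 tanks, with differences of -1.32 and 1.22, but its probe set is shared with relatives. SEC59, the dolichol kinase needed for protein glycosylation, gave 10.73, 10.72 and 10.79 in day 5 vials and 9.17, 9.74 and 9.43 in day 10 tanks, with -1.30 (SE 0.13, adjusted p = 3.3e-07) against 0.88. GAL7, an enzyme of galactose use, differed by -1.20 against 1.07, and SEO1, a putative permease, by -1.0 against 1.09. In these genes both day 10 groups lay below both day 5 groups.

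Glycolysis and ethanol genes held 7 of these 281, which were 5.16% of all genes. Of 24 genes 5 were higher and 10 lower in the first comparison (median -0.10), beside 26.4% and 30.9% of all genes. In the second 18 were higher and 1 lower (median 0.26), beside 40.8% and 29.8% of all genes. Without replicate 2 of the day 10 tanks, 2 were higher and 10 lower. GLK1, the glucokinase, was higher in both (0.50 and 0.41). ADH2, the alcohol dehydrogenase that consumes ethanol, turned from -0.44 to 0.51, but its arrays overlapped in the first comparison and the call was lost on leaving out vial replicate 1 or tank replicate 1 or 3. PDC6, a minor pyruvate decarboxylase, was lower in both (-0.58, or -0.93 with array weights, and -0.63). The proteasome list had 5 of 37 genes higher and 12 lower in the first comparison and 17 higher and 6 lower in the second, where its share of higher genes was near the 40.8% of all genes. The 12 lower in the first were likewise near the 30.9% of all genes. Its RPN8, of the regulatory lid, was lower in both (-0.82 and -0.73), whereas the base ATPase RPT5 was higher in both (0.47 and 1.19).

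Lists with shares not far from those of all genes in the first comparison included cell cycle and replication (14 of 43 higher and 13 lower) and autophagy and vacuole (7 of 33 higher and 8 lower). The mitochondrial ribosomal proteins had 20 of 72 higher and 17 lower (median -0.05), and without replicate 2 of the day 10 tanks 22 higher and 9 lower (median 0.05). Some single members differed more. MRP1, of the small mitochondrial subunit, differed by 1.37 (adjusted p = 1.4e-08) against 1.59. MCM3, of the replicative helicase, turned from 1.94 to -1.20. ATG15, a vacuolar lipase, was higher in both (1.53 and 2.00), and CPS1, a vacuolar carboxypeptidase, lower in both (-1.70 and -0.73).

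The 6 arrays of day 2, in exponential growth, take part in neither offset comparison. There 2081 genes (38.2%) were higher and 2130 (39.1%) lower in the tanks than in the vials. Of the 980 genes higher under both offsets 652 were also higher on day 2 and 120 were lower. Of the 882 lower under both, 666 were also lower on day 2 and 96 were higher. The lists were chosen with results of day 2 known, so this is a description. Of the genes named above, PUT1 differed by -5.66 on day 2, DAL80 by -4.24, DIP5 by -2.73, BTN2 by -1.49 and PAU24 by 0.99, with their stationary-phase signs. HSP82 showed -0.02 (adjusted p = 0.86), RTT10 0.08 (adjusted p = 0.52) and PRP46 -0.05 (adjusted p = 0.78), none of them called. CTR3 (-1.97), CAR1 (-0.76), FRE3 (0.79) and SET6 (0.50) were called with the sign opposite to that of both offset comparisons.

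The scale comparisons at equal days share arrays with both offset comparisons and are given as levels only. DIP5 differed between the scales by -4.41 on day 5 and -3.35 on day 10, SOV1 by 2.95 and 3.64, and OYE3 by 2.31 and 2.14. ROX1 differed by -2.73 on day 5 and -1.47 on day 10, and HMG1 by -1.86 and -0.01. BSC1 differed by 2.01 and 3.46. The first 3 genes were thus apart on both days, whereas the scale difference of HMG1 on day 10 was close to 0.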

How the data were processed

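The 6 arrays compared, and the 12 used beside them, hold RNA amplified from VIN13 yeast of each scale and day. Per the labels' protocols the authors summarised probe sets with RMA in the Affymetrix Expression Console (version not given in the sources used here). Their deposited table holds intensities on a linear scale, between 4.79 and 39396, and their log2 was taken here. The analysis plan took them to be log2 values already, so this step was added.

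Of 10928 probe sets, 5498 were listed with 1 S. cerevisiae gene each and stood for 5449 genes. For 47 genes with several probe sets the brightest was kept. In the comparison the probe sets of a gene differed in sign for 4 of these and by over 1 log2 unit for 1. Left out were 166 controls, 1 probe set with several genes, 1746 taken to be of S. pombe because their gene is outside the S. cerevisiae reference (6477 genes, R64), and 3517 with no listed gene. Background was taken as the 95th percentile over the means of the S. pombe probe sets, and no group of a gene named in the text lay wholly at or below it.

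Differences were tested with limma 3.58.1 (R 4.3.3, data.table version 1.17.8) as contrasts of 6 group means over 18 arrays, with 12 residual degrees of freedom and Benjamini-Hochberg adjustment over all 5449 genes. The replicates behind each p-value are those the labels call biological. Both offset comparisons come from this fit, which shares one estimate of spread. Their difference equals the sum of the day 10 minus day 5 changes at the 2 scales. Arrays sharing a replicate number were not treated as pairs: deviations of same-numbered day 10 tank and day 5 vial arrays correlated at 0.02, 0.17 and -0.16.

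Genes were named by rule: the 12 largest rises and falls, the 10 highest and lowest by the smaller of both offset differences, the 5 most opposed each way, up to 3 called members per direction of each list, and a fixed set. The members and the 36 gene lists were chosen with earlier results of these data known. Of 1269 list entries 1247 matched a measured gene. No promoter or protein sequence was used here. The alternatives tried were repeated quantile normalization, centring arrays on their median, a filter on dim genes, the most variable instead of the brightest probe set, a trended and robust prior, array weights, fewer groups in the fit, a 2-fold change, replicate blocks and leaving out each array. The method was tested on simulated data. Plots used matplotlib 3.10.9 and pandas 2.3.3 under Python 3.11.15.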

Additional observations from a re-analysis of the deposited data

Results flagged for a closer look

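The difference between both offset comparisons, tested in the same fit, was called for the 10 genes most opposed in direction. The first exceeded the second by 7.54 log2 units for ROX1, 5.25 for FAT3, 5.12 for HMG1, 4.21 for UTR5 and 3.48 for IDI1. It fell short of the second, with differences of -2.54 for COS7, -2.27 for GAL7, -2.18 for SEC59, -2.09 for SEO1 and -2.07 for BAP2. These genes were picked for being opposed, so the values describe them and do not support the pattern.

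Probe sets with no listed gene were outside the comparison. Of 3517 such probe sets 457 lay above background in the day 10 tanks or the day 5 vials. Of those 457, 92 were called, 57 higher and 35 lower in the tanks, with differences from -3.09 to 3.33. They cannot be assigned to either yeast here.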

How the results depend on the processing

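Counts of genes past the threshold stayed within 1.5 times of those reported under every alternative apart from these. Array weights gave 284 and 525 genes called in opposite directions (higher first, lower first). Only the groups compared in each fit gave 166 of the latter. A required 2-fold change gave 294 higher and 265 lower in the first offset comparison, 523 and 674 in the second, 480 and 359 for their difference, 249 and 411 for their mean, 125 and 188 alike in both, and 26 and 2 opposed. That threshold turned the balance of higher and lower genes in each of these 6 pairs of counts. Repeated quantile normalization gave 1530 higher and 1592 lower genes, and the median of all genes was -0.03 with it and -0.04 with centred arrays. Leaving out 1 array at a time gave 1289 to 1440 higher and 1408 to 1692 lower genes in the first comparison. The ranges were 2065 to 2271 and 1483 to 1677 in the second, 892 to 1287 and 1466 to 1796 for the difference, and 2007 to 2083 and 1736 to 1855 for the mean. Alike in both were 866 to 985 and 738 to 928, and opposed were 154 to 222 and 212 to 356. Among genes named in the report, IDH2, ADH2, ARO80 and SUE1 lost their calls with only the groups compared in the fit. CYB2, not called at 0.34, reversed to -0.29 with array weights and lay between -0.12 and 0.77 with 1 array left out. The replicate number as a block gave 1423 higher and 1654 lower genes and changed the call of 2 of 222 named genes, MBP1 and SIP18. As a random block within a scale its correlation was -0.02. Of 36 list medians 8 moved with array weights and 5 without replicate 2 of the day 10 tanks. The cause of these changes was not tested. The planned search of promoters for motifs was not run, since no sequences were used here. Signal over background limits genes near log2 4.40, BSC1 and RGI2 in the day 5 vials among them.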
